A study of Mus musculus with 4 samples.

Results

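The 9 genes described here, Cnp, Mbp, Mag, Mog, Mobp, Gpr17, Bcas1, Myrf and Ugt8a, mark the oligodendrocyte lineage and the myelin it makes. They were chosen by name, as the entries of the count table with these symbols, and all 9 were found among its 45703 genes. They were measured in 4 RNA-seq libraries of 1 group, cultures 1 to 4, of cortical astrocytes. Wild-type CD-1 mice were the source, at postnatal day 4. Frontal cortex cells were grown in a serum medium that held B27 and 10 ng/ml EGF. On day in vitro 6 each dish received 200000 cells, and RNA was taken 3 days after that, with 60 min in serum-free Ham's medium before lysis. There was no treated, mutant or sorted group and no control, and the labels name no step that removes oligodendrocyte lineage cells. The number of mice behind each culture, and whether the 4 were prepared separately, is not stated, so the spread between these libraries may be technical.

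Oligodendrocytes wrap axons of the central nervous system in myelin, a stack of lipid-rich membrane. They arise from dividing precursors marked by Pdgfra and Cspg4, pass through a short premyelinating stage at which Gpr17 and Bcas1 are made, and then switch on the genes of the myelin sheath. Olig2 and Sox10 set up the lineage, and Sox10 and Myrf together drive the myelin genes. In myelinating cells Mbp is among the most abundant transcripts. Glial cultures from newborn cortex are known to hold some cells of this lineage beside astrocytes.

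Library totals ran between 37300485 and 42369109 counts, so that 1 count was 0.0236 to 0.0268 CPM (counts scaled to the same library total). Culture 4 stood apart. The chi-square per degree of freedom between libraries was 2.11 to 3.17 for pairs of cultures 1 to 3 and 39.3 to 41.1 for pairs with culture 4, so cultures 1 to 3 were closer to each other than to culture 4. All 10 genes of an astrocyte marker list reached 1 CPM in every library, among them the glutamate transporter Slc1a3 at 2601 ± 78.6 CPM (SD, n = 4). Set against the mean of the other 3 cultures, the list had a median log2 deviation of -0.08 in culture 4. There 2 of the 10 were past 1.5-fold lower, as were 5.66% of 15217 genes with a mean of at least 1 CPM. None of the 10 was past it higher. The most abundant of the 2 was Gfap, the astrocyte filament gene, at 779.7 CPM in culture 4, against 1498, 1522 and 1555 CPM in cultures 1, 2 and 3, while the glycolytic enzyme gene Aldoc was at 700.0 CPM, against 623 to 632 CPM.

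Cnp was the 1 member at a high level. A gene was called expressed at 1 CPM or more in every library. By this rule 5 of the 9 members were expressed (Cnp, Bcas1, Ugt8a, Myrf and Mbp), where 32.2% of all genes and 58.1% of protein-coding genes were. With TPM in place of CPM 3 members passed, and Myrf (0.89 to 1.31 TPM) and Mbp (0.56 to 0.78 TPM) did not. Levels of different genes were compared as RPKM, which is CPM per kilobase of the deposited exon length. Cnp stood at 61.5 ± 4.48 RPKM and the other members at 0.94 RPKM or less (means of 4). In each culture Cnp made up at least 94.2% of the summed CPM of the 9 genes. The summed CPM of the other 8 was 10.2 in culture 4, against 11.7 to 12.97 in cultures 1 to 3. With Bcas1 left out as well, that of the other 7 was 8.45 in culture 4, against 7.73 to 7.81 in cultures 1 to 3. At the lower end, 2 of 9 members, Mog and Gpr17, had no more than 3 counts over all libraries, the floor used here, as did 24.8% of protein-coding genes. The plot of RPKM by culture shows Cnp apart from all other members.

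**Figure D1:**
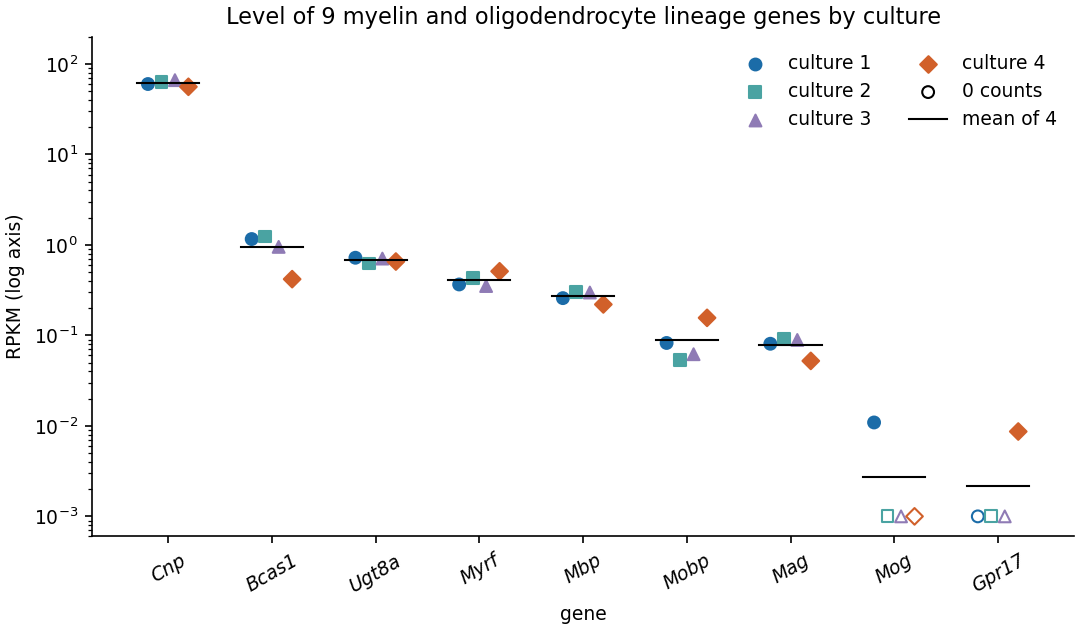
RPKM of each of the 9 genes (log axis) in cultures 1 to 4, with the mean of 4 as a bar and libraries without a count as open symbols at the foot of the axis. Cnp lies at 56.0 to 66.3 RPKM in all 4 cultures, Bcas1 at 1.24 RPKM or less, and Mog and Gpr17 have counts in 1 library each.

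Promoter sequence is given for 4 members that span this range. They are Cnp, the abundant one, Ugt8a, Mobp, whose counts were low and uneven between cultures, and Mog, at the floor. Ugt8a had the smallest SD of CPM relative to its mean of the 9 genes (6.804%, and 7.28% for Cnp), with 106 to 126 counts per library. Each line is the 250 bases before the RefSeq start of the gene on GRCm38.p6, on the strand of the gene. The starts of Cnp and Ugt8a in that table lie a little inside the gene spans given below. Capitals mark matches, on either strand, to ACAAAG and AACAAT (letters bound by SOX proteins), CTGGCAC and CTGGTAC (bound by Myrf), and CAGCTG and CATCTG (E-boxes bound by Olig-type factors).
Cnp (chr11:100574689-100574938, plus strand): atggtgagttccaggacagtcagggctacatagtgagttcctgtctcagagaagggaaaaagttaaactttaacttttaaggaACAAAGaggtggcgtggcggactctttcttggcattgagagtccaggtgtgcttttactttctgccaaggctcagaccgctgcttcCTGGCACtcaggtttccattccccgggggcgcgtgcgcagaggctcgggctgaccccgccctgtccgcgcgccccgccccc
Ugt8a (chr3:125938653-125938902, minus strand): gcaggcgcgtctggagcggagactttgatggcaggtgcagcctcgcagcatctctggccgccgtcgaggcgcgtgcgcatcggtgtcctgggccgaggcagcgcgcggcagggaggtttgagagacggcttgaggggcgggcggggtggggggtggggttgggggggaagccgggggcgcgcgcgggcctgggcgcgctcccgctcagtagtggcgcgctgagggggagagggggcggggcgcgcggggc
Mobp (chr9:120149492-120149741, plus strand): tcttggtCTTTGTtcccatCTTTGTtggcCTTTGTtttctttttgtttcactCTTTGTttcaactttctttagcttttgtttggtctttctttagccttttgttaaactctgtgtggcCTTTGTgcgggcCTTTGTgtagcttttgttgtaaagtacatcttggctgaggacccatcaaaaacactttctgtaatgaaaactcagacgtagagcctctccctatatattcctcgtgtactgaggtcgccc
Mog (chr17:37023399-37023648, minus strand): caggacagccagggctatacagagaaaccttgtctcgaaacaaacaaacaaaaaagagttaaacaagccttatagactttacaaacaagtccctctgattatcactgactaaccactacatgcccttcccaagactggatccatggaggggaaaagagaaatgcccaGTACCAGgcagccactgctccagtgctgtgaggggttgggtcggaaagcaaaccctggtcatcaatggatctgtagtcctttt

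Counts of letters refer to the window from 250 bases before to 50 after a start, in Cnp, Ugt8a, Mobp, Mog and Mag. Bcas1, Gpr17, Mbp and Myrf were not searched. Mobp held 6 copies of ACAAAG, all on the other strand (seen above as CTTTGT) and all within the first 150 bases shown. Of 32851 promoter windows 18.7% held this motif at least once. The Mobp window was the only one with 6 or more, a cut that is the count of Mobp itself. These copies do not overlap each other. Cnp held 1 ACAAAG and 1 CTGGCAC, a motif found in 5.01% of windows. Mog held 1 CTGGTAC (2.24% of windows), and Ugt8a held none of the 6 motifs. Of the 3 start windows of Mag, 2 overlapping ones share 1 CTGGCAC and 1 ACAAAG match. By CpG content, Ugt8a had 40 CpG dinucleotides in its window and Cnp 17, against 3 in that of Mog and 5 in that of Mobp, where the median over all windows was 7. These matches describe the letters only, and none was tested for binding.

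Among the myelin proteins, Cnp (GeneID 12799; GRCm38.p6 chromosome 11, 100574909 to 100591875, plus strand) encodes an enzyme that cleaves cyclic nucleotides in vitro and keeps cytoplasm between the myelin layers. It had 8326, 8620, 8343 and 8006 counts, or 203, 215, 224 and 189 CPM, in cultures 1 to 4. The mean was 208 ± 15.1 CPM (SD, n = 4), and culture 4 was the lowest. By CPM it was gene 911 of the table. Its counts were not all whole numbers, so some reads were counted in part. It shares the span 100582818 to 100591875 with Dnajc7, a chaperone gene on the minus strand at 142 ± 6.31 CPM. Counts of Dnajc7 were whole numbers in all 4 cultures (5743, 5542, 5148 and 6406). The libraries were stranded, but the sources used here do not say whether the counting used strand. Any part of reads from that span in the level of Cnp was not tested.

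Mbp (GeneID 17196; chromosome 18, 82475091 to 82585637, plus strand) encodes myelin basic protein, which holds the inner faces of the myelin membrane together. It had 74, 85, 77.5 and 65 counts, or 1.80, 2.12, 2.08 and 1.53 CPM, with a mean of 1.88 ± 0.27 CPM, and culture 4 was again the lowest. As RPKM, Cnp was 229-fold above Mbp, with 209.5- to 254.5-fold in single libraries. With the longest GENCODE transcript as the length this ratio was 183. The gene model also covers the upstream Golli exons, a set of Mbp transcripts made outside myelin as well, and gene counts do not separate the forms.

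Mobp (GeneID 17433; chromosome 9, 120149742 to 120181488, plus strand) encodes a small basic protein of compact myelin. It had 43 counts in culture 4, against 22, 14 and 15 in cultures 1, 2 and 3, or 1.01 CPM against 0.54, 0.35 and 0.40 CPM. Culture 4 was thus the one library in which it reached 1 CPM. The plasma membrane protein Mag (GeneID 17136; chromosome 7, 30899175 to 30914922, minus strand), a sialic acid-binding lectin of the myelin surface next to the axon, had 9, 10, 9 and 6 counts, or 0.21 ± 0.05 CPM, with the fewest in culture 4. Mog (GeneID 17441; chromosome 17, 37010740 to 37023398, minus strand), an outer-surface protein of late myelin, had 1 count in culture 1 and 0 in the other three, where a total of 3 counts would be 0.0187 CPM.

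Ugt8a (GeneID 22239; chromosome 3, 125865272 to 125938682, minus strand) encodes the enzyme that makes galactosylceramide, the main glycolipid of myelin. It had 126, 106, 112 and 118 counts, or 3.07, 2.64, 3.00 and 2.79 CPM, a mean of 2.88 ± 0.20 CPM. Culture 1 was the highest and culture 2 the lowest, with culture 4 between them. The SD over the cultures was 6.804% of the mean, and 7.28% for Cnp. Fa2h, which hydroxylates the fatty acids of these lipids, had 9 counts in all and 0.0226 RPKM, and Gal3st1, which turns galactosylceramide into sulfatide, had 0.56 RPKM, both below the 0.68 RPKM of Ugt8a. Enzymes of sphingolipid synthesis that many cell types use were above it, such as Cers2, a ceramide synthase, at 65.3 RPKM, and the list of 13 myelin lipid genes had a median of 7.28 RPKM.

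Of the premyelinating genes, Bcas1 (GeneID 76960; chromosome 2, 170343973 to 170427911, minus strand), a protein of newly forming oligodendrocytes and of myelin, was the second highest member as RPKM. It had 74 counts in culture 4, against 199, 207 and 148 in cultures 1, 2 and 3, or 1.75 CPM against 4.84, 5.16 and 3.97 CPM. Culture 4 lay below the range of the others. Gpr17 (GeneID 574402; chromosome 18, 31942999 to 31949890, minus strand), a receptor that holds cells at the premyelinating stage, had 2 counts in culture 4 and 0 in cultures 1 to 3. It lies within the span of Lims2, a plus-strand gene at 1.43 ± 0.12 CPM. Mbp, Bcas1 and Ugt8a also overlap a gene on the other strand, each with 3 counts or fewer in any culture.

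Myrf (GeneID 225908; chromosome 19, 10208271 to 10240777, minus strand) is the membrane-bound transcription factor that cleaves itself and switches on the myelin genes. It had 124 counts in culture 4, against 86, 98 and 75 in cultures 1, 2 and 3, or 2.93 CPM against 2.09, 2.44 and 2.01 CPM. Its partner Sox10 had 5 counts in culture 4 and 0, 2 and 2 in cultures 1, 2 and 3. As RPKM, Olig2 was 241-fold and Olig1 1473-fold above Myrf. In bulk RNA, fewer cells of a type and less RNA per cell cannot be told apart, which holds for each of these levels.

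The order of levels as RPKM was Cnp (61.5), Bcas1 (0.94), Ugt8a (0.68), Myrf (0.41), Mbp (0.27), Mobp (0.089) and Mag (0.079), with Mog and Gpr17 at the floor. Neighbours in this order were held apart when the log2 ratio had 1 sign in 4 of 4 cultures and its mean was over 2 SD of the ratio. By this rule 2 of 6 neighbouring pairs were apart. Cnp was 70.5-fold above Bcas1 (log2 ratio 6.14 ± 0.65, SD), and Ugt8a 1.65-fold above Myrf (0.72 ± 0.32). Bcas1 and Ugt8a changed places in culture 4, with log2 ratios from -0.65 to 0.99 over the cultures, and so were not apart. Myrf was above Mbp in 4 of 4 cultures but within 2 SD (0.61 ± 0.42), and with GENCODE lengths it was above in 1 of 4. Mbp was likewise above Mobp in 4 of 4 cultures but within 2 SD (1.73 ± 0.90). Mobp was above Mag in 2 of 4 cultures. With GENCODE lengths (0.91 ± 1.06) or on CPM (1.34 ± 1.06) it was above in 4 of 4 but within 2 SD. Without culture 4, 5 of 6 pairs were apart. The pair not apart was Mag and Mobp, with Mag above in 2 of 3 cultures (0.42 ± 0.41). Ugt8a and Myrf were no longer apart without culture 1 or without culture 3, leaving 1 pair. On CPM with no length term they were not apart either (0.29 ± 0.32), while Mbp and Mobp were.

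Differences between libraries were compared with counting error by a chi-square test on each gene with at least 40 counts, with Benjamini-Hochberg adjustment over 17969 genes. The test compares these libraries and not conditions. Of the 6 members tested, 3 passed, against 50.8% of all genes tested. They were Cnp (adjusted p = 1.8e-31), Bcas1 (adjusted p = 4.93e-16) and Mobp (adjusted p = 0.000869). The counts of Myrf (adjusted p = 0.0767), Mbp (adjusted p = 0.229) and Ugt8a (adjusted p = 0.708) did not pass. The test picks up smaller differences in genes with more counts, so its p does not rank members by spread. Cnp had 33294 counts in all and an SD of 7.28% of its mean CPM, and Ugt8a 462 counts and 6.804%. Without culture 4, only Cnp passed (adjusted p = 1.27e-06), where 8.67% of 17297 genes did. Bcas1 was then at an adjusted p of 0.212 and Mobp at 0.725. Myrf passed without culture 2 (adjusted p = 0.0339).

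Each culture was also set against the mean of the other 3 on the log2 scale, as a description with no test. This was done for genes with a mean of at least 1 CPM, 5 members among them. Bcas1 was 1.40 below in culture 4, a fold of 0.379, and was the 1 member past 1.5-fold lower there, where 5.66% of 15217 genes were. No member was past 1.5-fold higher in culture 4, where 2.42% of genes were. Bcas1 was also 0.68 above in culture 2, past 1.5-fold, as 0.69% of genes were, but culture 4 is part of the mean it was set against, and without culture 4 it was within 1.5-fold. In culture 4 Myrf deviated by 0.43, Cnp by -0.18, Mbp by -0.38 and Ugt8a by -0.06. Mobp, whose mean was under 1 CPM, deviated by 1.24. No member was past 1.5-fold lower in culture 2 (0.289% of genes), nor in either direction in culture 1 (0.572% higher and 0.519% lower) or in culture 3 (0.769% higher and 0.381% lower).

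**Figure D2:**
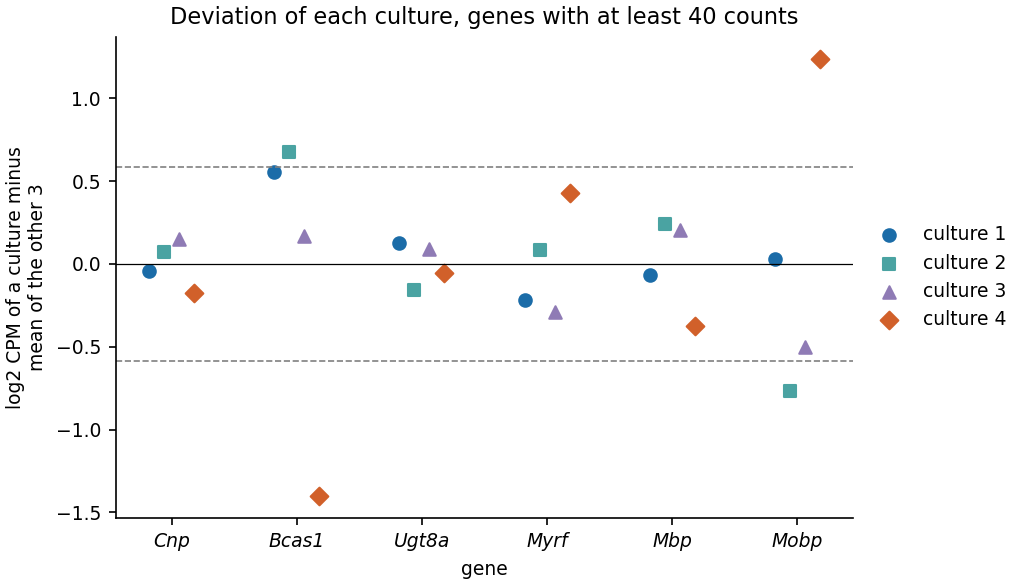
Log2 CPM of each culture minus the mean of the other 3, for the 6 genes with at least 40 counts, with dashed lines at 1.5-fold. In culture 4 Bcas1 lies at -1.40 and Mobp at 1.24, while Cnp and Ugt8a lie within 0.18 of 0 in all 4 cultures.

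The spread between cultures, as edgeR's biological coefficient of variation (BCV), could be had for the 6 members that passed its filter on low counts. It was 0.342 for Bcas1 and 0.32 for Mobp, and 0.113 for Ugt8a, 0.146 for Mbp, 0.153 for Myrf and 0.0826 for Cnp. The median over the 6 was 0.149, and over all 17105 genes kept 0.0941. Genes of lower level had a higher BCV. Over 941 genes within 0.5 log2 units of the CPM of Cnp the median was 0.0684, and 75.8% of them lay below Cnp. Over 1295 genes as close to Bcas1 the median was 0.129, and 97.8% of them lay below Bcas1. For Mobp, 96.9% of 1243 such genes lay below it, and for Ugt8a 19.1% of 1188. Without culture 4 the BCV of Bcas1 was 0.0492 and that of Mobp 0.0242, and the median over all genes kept was 0.0255. The method draws the BCV of each gene toward that of genes of like level. With 14 to 22 counts of Mobp in cultures 1 to 3, its value there says little of Mobp alone.

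**Figure D3:**
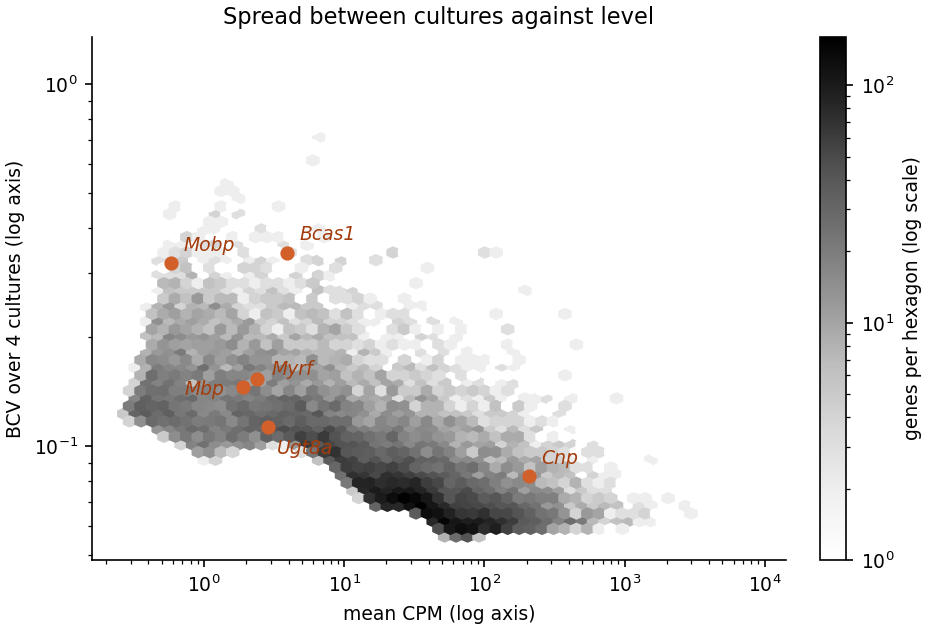
BCV over the 4 cultures against mean CPM (both log axes) for 17105 genes, in grey hexagons by number of genes, with the 6 members that passed the filter in orange. Bcas1 (0.342) and Mobp (0.32) lie near the upper edge for their level, and Ugt8a (0.113) in the lower part.

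Other genes of the lineage gave a mixed picture. Of 16 oligodendrocyte precursor genes 12 were expressed, with a median of 3.22 RPKM (0.0231 over all genes and 0.27 over the 9 members). The median over all genes takes in 16047 with no count in any library. Of protein-coding genes 58.1% were expressed, the share to set beside this and the list counts that follow. Olig1, a bHLH factor of the lineage, had 1310 ± 71.0 CPM and was gene 49 of the table, Ptprz1, a receptor phosphatase that astrocytes make too, had 1367 ± 111 CPM, and Olig2 had 241 ± 7.88 CPM. Counts of Olig1, Olig2 and Ptprz1 were not all whole numbers either. The precursor markers Pdgfra and Cspg4 had 14.6 ± 3.95 and 23.9 ± 0.60 CPM, and Cspg4 is also on the list of mural cell genes used below. At the other end Sox10 had 9 counts and the sialidase Neu4 3 counts in all. Pdgfra was at 20.5 CPM in culture 4, against 12.03 to 13.46 CPM in cultures 1 to 3. The secreted C1ql1 was at 7.03 CPM in culture 4, against 25.1 to 28.7 CPM in the others. Of the 14 precursor genes with a mean of at least 1 CPM, 4 were past 1.5-fold lower there, with 1 past it higher. Over all genes with such a mean, 5.66% were lower and 2.42% higher.

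Of 21 factors for oligodendrocyte differentiation 16 were expressed. The chromatin remodeller Smarca4 had 266 ± 13.2 CPM, Zfp24, a zinc finger protein needed for the myelin programme, 113 ± 8.24 CPM, and Tmem98, which binds Myrf and blocks its cleavage, 40.3 ± 0.98 CPM. The homeobox gene Nkx2-2 had 14.1 ± 0.68 CPM. Zfp488 had 1.2 counts in all and Sox17 had 0. In culture 4 Zfp536 and Chd7 were past 1.5-fold higher, at 11.1 and 38.9 CPM, against 5.96 to 6.84 and 24.3 to 25.5 CPM in cultures 1 to 3. All 18 genes of a list of brakes on differentiation were expressed, among them Hes5, a Notch target, at 1.37 ± 0.17 CPM and Daam2, an inhibitor of differentiation through Wnt signalling, at 444 ± 7.29 CPM. That list also holds Hdac1, Hdac2 and Tcf4, which are known to favour differentiation, so its name does not cover all its genes.

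Of 14 genes of committed and premyelinating cells 12 were expressed, most of them genes used in many cell types, such as Tns3 (347 ± 6.07 CPM) and the kinase Fyn (198 ± 5.23 CPM). The Wnt effector Tcf7l2 had 24.5 ± 2.17 CPM. Enpp6, a choline phosphodiesterase that marks newly forming oligodendrocytes, had 22 counts in all, or 0.14 ± 0.08 CPM. The zinc transporter Tmem163 was at 12.9 CPM in culture 4, against 1.77 to 2.02 CPM in cultures 1 to 3.

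Of 16 genes of compact myelin structure 10 were expressed, with a median of 1.44 RPKM. The highest as RPKM were the tetraspanin Cd9 (316 ± 14.0) and Pmp22 (189 ± 6.37), both made outside myelin as well. Cldn11, the tight junction protein of myelin, was at 1.04 CPM in culture 4, against 2.37 to 2.63 CPM in cultures 1 to 3, and Mal, a myelin lipid raft protein, at 4.27 CPM against 6.57 to 7.41 CPM. Opalin had 0 counts and the connexin Gjb1 had 1 count. In the myelin lipid list 12 of 13 genes were expressed, among them Cers2 (164 ± 9.70 CPM) and the sterol enzyme Hmgcs1 (644 ± 70.4 CPM), while Aspa, which frees acetate for myelin lipids, had 1.90 ± 0.52 CPM. In the plot of levels by list, most genes of each other list lie above every member except Cnp.

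**Figure D4:**
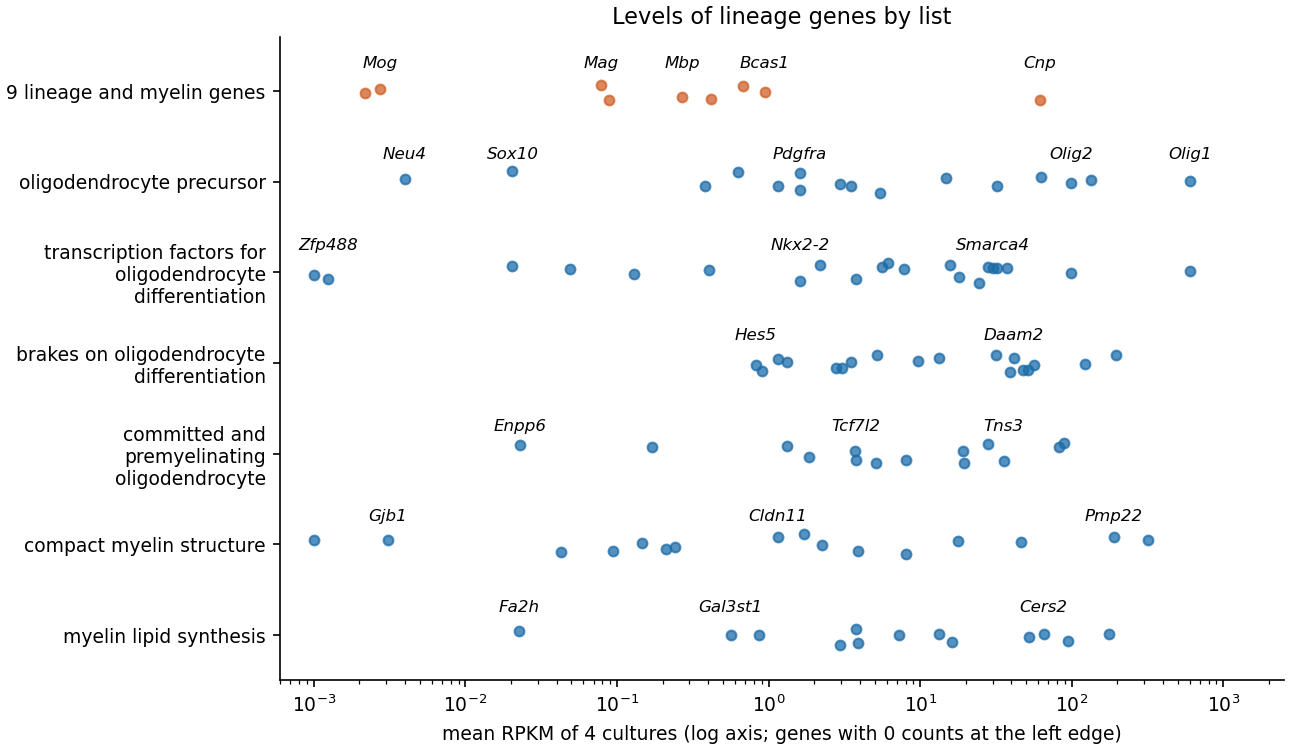
Mean RPKM over the 4 cultures (log axis) of the 9 genes (orange) and of 6 lists of lineage genes (blue), 1 point per gene, shifted up or down at random to limit overlap, with genes at 0 counts at the left edge. Olig1 and Olig2 lie to the right of Cnp (61.5 RPKM), while Sox10, Enpp6 and Fa2h lie below 0.03 RPKM.

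The partners of single members were as follows. Of 11 receptors and partners of Mag and Nogo 8 were expressed, among them Rhoa (471 ± 4.54 CPM), the GTPase downstream of them, and Rtn4 (418 ± 62.6 CPM), which encodes Nogo. The Nogo receptor Rtn4r, which also binds Mag, had 35 counts in all. The co-receptor Tnfrsf19 was at 52.3 CPM in culture 4, against 29.4 to 33.3 CPM in cultures 1 to 3. Of 8 nucleotide and leukotriene receptors related to Gpr17, 2 were expressed, P2ry1 at 29.9 ± 1.19 CPM and P2ry12, a marker of microglia, at 4.39 ± 0.64 CPM, and Oxgr1 had 2.2 counts.

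Markers of some other cells, but not of all, also stood at other levels in culture 4, the library in which Bcas1 was low and Mobp high. In every library 1 CPM was reached by 7 of 8 microglial, 5 of 7 fibroblast and meningeal, 2 of 7 endothelial, 6 of 10 neuronal, 5 of 7 mural, 3 of 5 ependymal, 2 of 5 Schwann cell and 6 of 6 proliferation genes. The summed CPM of 8 microglial genes was 119 in culture 4, against 166 to 174 in cultures 1 to 3, with Tmem119 at 0.76 CPM against 3.12 to 3.54 CPM and none of the 8 at 0. That of 7 fibroblast and meningeal genes was 1289, against 2174 to 2293, with Col1a1 at 72.4 CPM against 570.1 to 622.6 CPM. That of 7 endothelial genes was 7.80, against 14.2 to 15.1, with Cldn5 at 1 count and Cdh5 at 0 counts in culture 4 and at 0 and 19 counts over the other 3. Of the 2 endothelial genes with a mean of at least 1 CPM, 1 was past 1.5-fold lower in culture 4. That gene made up most of the difference in the sum. Of the 5 fibroblast and meningeal genes with such a mean, 3 were past 1.5-fold lower in culture 4. Islr, the most abundant of them, was at 777.5 CPM there, against 820.9 to 855.9 CPM. The 6 proliferation genes summed to 1631 CPM, against 1241 to 1260 CPM. The 10 neuronal genes summed to 184, against 205 to 210 CPM, and the 7 mural genes to 2875, against 2954 to 3131 CPM. Stmn2 alone was at 142 CPM of the neuronal sum in culture 4. Of 6 neuronal genes with a mean of at least 1 CPM, 1 was past 1.5-fold higher there and 1 past it lower. The 5 ependymal genes summed to 203.5, within the 201 to 222 CPM of the others. The 5 Schwann cell genes, a source of peripheral myelin transcripts, summed to 6.92, against 6.50 to 6.86 CPM. Of the 2 among them with a mean of at least 1 CPM, 1 was past 1.5-fold higher in culture 4 and 1 past it lower. The part of these cells in the values of Bcas1 and Mobp was not tested.

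For each expressed member, the 3 genes with the most similar pattern were found by the Euclidean distance between log2 CPM values, each gene centred on its own mean, over 4 cultures and 15216 other genes. For Bcas1 they were Tnfrsf11b (distance 0.0838), Lhfpl3, a precursor gene (0.123), and Ptgs2 (0.136), and 1 gene lay within 0.1. Lhfpl3 was at 0.87 CPM in culture 4, against 2.12 to 2.44 CPM in the others. For Cnp they were H6pd, Rab11fip5 and Mad2l2, and 807 genes lay within 0.1. For Mbp they were Crispld2, Adgre1 and Micall2, with 58 genes within 0.1, for Myrf Gm7240, Zfp597 and Tsc22d3, with 38, and for Ugt8a Tmem268, Dnajc6 and Mfap4, with 155. With 4 points, 3 of them from libraries this close to each other, such likeness describes mainly how a gene stood in culture 4.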

How the data were processed

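Poly-A RNA of 4 cultures was sequenced. Each stranded library was made from 500 ng RNA (integrity number above 9.3) and 14 PCR cycles, per the labels' protocols. Reads were handled with STAR 2.7.2b, featureCounts 1.6.4, cutadapt 1.17 and bcl2fastq 2.20.0.422 on GRCm38.p6, per the submitters' processing notes. The sources used here give no settings for them. Deposited values are estimated counts per gene, since 31.7% of values above 0 were not exactly whole. The exon length is a deposited column too. All 45703 identifiers matched a RefSeq table of the same build.

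CPM used raw library sums. Counts were rounded for edgeR 4.0.16 (TMM, intercept-only BCV, default filter), DESeq2 1.42.0 size factors and the chi-square test (SciPy 1.17.1, 3 degrees of freedom, TMM-scaled sizes). The chi-square test and the BCV were also run on simulated counts, drawn from the models that they assume. Those runs did not cover PCR copies or reads counted in part, and their outcomes are not reported here. Deviations used a prior count of 0.5. With no molecular identifiers, PCR copies are counted as reads, so the chi-square test and floors cover counting error only. With 1 group there was no contrast to test.

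The 9 genes, the lists and the rules were chosen with earlier results of these data known. Named were all 9 members, a set of lineage genes, up to 5 of the highest, 3 of the lowest and 3 of the most deviating genes of each list, and 3 nearest patterns. Genes overlapping a member, Hdac1 and Hdac2 were named, and CpG dinucleotides counted, after values were seen. The cut of 6 motif copies was not among the planned settings. Promoters are from RefSeq. The levels of some list genes are not reported here.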

Additional observations from a re-analysis of the deposited data

Results flagged for a closer look

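In groups of 4, a library was picked out when its gap to the nearest other was nearly the whole range (Dixon's test at its 95% critical value), which chance gives for about 1 in 20 groups. Of 80 genes named, 24 were picked out, 21 of them for culture 4, in CPM. Some of the 80 were named because they deviated most, or after values were seen. The number picked out can therefore not be set against that rate, and the share over all genes is not given here. The members picked out were Mog, at 0.0243 in culture 1, and Gpr17, at 0.0472 in culture 4. Both were at the floor and at 0 in the other cultures. Bcas1 and Mobp were not picked out. At the floor too were Gjb1, at 0.0249 in culture 2, Cldn5, at 0.0236 in culture 4, and Neu4, at 0 in culture 3 and with 1 count in each other.

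Genes at their lowest in culture 4, against cultures 1 to 3, were as follows. Cldn11 was at 1.04 (2.37 to 2.63), Cers2 at 149 (167.5 to 169.2), C1ql1 at 7.03 (25.1 to 28.7), Cacng4 at 12.2 (22.1 to 22.7), Rtn4 at 325 (442 to 460.1), Rtn4r at 0.118 (0.243 to 0.268), P2ry12 at 3.45 (4.61 to 4.84), Gfap at 779.7 (1498 to 1555), Tmem119 at 0.755 (3.12 to 3.54) and Col1a1 at 72.4 (570.1 to 622.6). Genes at their highest there were Pdgfra at 20.5 (12.03 to 13.46), Tmem163 at 12.9 (1.77 to 2.02), Zfp536 at 11.1 (5.96 to 6.84), Chd7 at 38.9 (24.3 to 25.5), Notch1 at 346 (279 to 288), Mki67 at 406 (292 to 304), Hdac1 at 100.7 (90.97 to 91.2), Aldoc at 700.0 (623 to 632) and Dnajc7 at 151 (138 to 139.8).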

How the results depend on the processing

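Over the cultures left out in turn, the number of members whose counts differed between libraries was 1 to 4 (3 with all), the number of neighbours held apart was 1 to 5 (2 with all), and the median BCV of members was 0.0296 to 0.183 (0.149 with all). The number of members expressed was 5 in each such run and 3 with TPM in place of CPM. The counts of members past 1.5-fold were 0 to 1 for higher in culture 1 and for higher in culture 2 when another culture was left out. At 2-fold, none was higher in culture 2. With no minimum level, 1 member was higher and 1 lower in culture 1, 2 were lower in culture 2, 1 was lower in culture 3, and 2 were higher and 3 lower in culture 4, most of these being members with few counts. The cause was not tested. The other 81 values of these results were within 1.5 times the value given, counts of members included, under TMM or DESeq2 scaling, other priors and minimums, with a culture left out, or with cultures 1 to 3 summed. Among them, 7 members had at least 1 count in every culture, against 5 called expressed, and on CPM with no length term 2 neighbours were held apart but with Mbp and Mobp in place of Ugt8a and Myrf. The summed CPM of members stayed at 212.5 to 226 and that without Cnp at 11.3 to 12.4, and without Bcas1 as well it was 7.93. GENCODE lengths, the sum over cultures 1 to 3, the sums without Cnp and without Cnp and Bcas1, and the runs without a culture for the deviations were chosen after seeing the data. Longest RefSeq transcripts were not run. No paired analysis was possible because there is 1 group. Depth limits Mag, Mog and Gpr17, where a few counts set the level.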
